A study of Rattus norvegicus with 4 samples.

Results

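Footpad skin taken from rats on day 9 of a fractionated irradiation course was compared with footpad skin taken on day 3. The comparison used 2 of the 4 libraries of the study, chosen by the collection day in their titles, and all genes. In all 18957 genes or UniGene-type entries were listed in the 4 libraries, of which 17367 were listed in the day 3 or the day 9 library. The rats were Sprague Dawley, an outbred stock, the skin came from the hindlimb footpad, and the study models the dermatitis that radiotherapy causes. By the protocol, the feet received 10 Gy of 9 MeV electrons at 500 cGy/min on each of days 1, 2, 4 and 5. The day 3 skin was thus collected after 2 irradiations, 1 day after the last of them, and the day 9 skin after all 4, 4 days after the last. The samples' own descriptions name a single irradiation day for each, day 2 for the day 3 sample and day 5 for the day 9 sample, and do not settle whether all doses had been given to these animals. The other libraries, from skin collected on day 0 before any irradiation and on day 6, 1 day after the fourth, are used below only to place the values. The labels give no animal, sex, batch, time of day or number of animals in a sample. The Y-linked genes Eif2s3y and Kdm5d had 0 counts on day 0 and 92 to 130 and 25 to 36 counts in the other 3 libraries, while Ddx3y, also Y-linked, had 1029 on day 0 and 469 to 870 in the others. The part of a difference between animals in the values set beside day 0 was not tested.

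Each collection day was measured with 1 library. The spread between animals is therefore unknown and was not tested, and every interval in the text is a 95% interval that covers counting error alone. In this assay a transcript is counted through a 21-base tag cut from a CATG site close to the 3' end, and a gene's count is the number of copies of its tags. The day 3 library held 1968034 gene counts and the day 9 library 1952921, so their depths were alike. Genes were called higher or lower by size alone: they had to differ by 2-fold or more after scaling, reach 50 counts in one of the libraries, and have an interval of the ratio that left out 1. A gene at 0 in a library was set to 3 counts there by convention. The minimum fold stated for such a gene follows from these 3 counts and is not the lower end of a 95% interval.

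Injured epidermis is known to leave its normal programme of differentiation. Keratinocytes at a wound or under inflammation make keratins 6, 16 and 17 in place of part of keratins 1 and 10. They also make small proline-rich proteins, S100 proteins, defensins and protease inhibitors. Radiation adds a response through p53, which holds the cell cycle and can start cell death, and later an inflammation of the skin with loss of dividing basal cells.

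By this rule 331 genes were higher in the day 9 library, 6.41% of the 5165 genes with enough counts, and 237 were lower, 4.59%. The other 4597 genes, 89.0%, lay within the rule. The list counts below are to be read beside these shares. Higher genes reached further from the centre: 64 were at least 4-fold higher and 23 at least 10-fold higher, against 26 and 10 on the lower side. The middle of the distribution was narrow, with quartiles of -0.35 and 0.38 on the log2 scale and a median log2 ratio of -0.003 over the 9939 genes with a mean of at least 10 counts. Of all genes past the rule 58.3% were higher on day 9. With the authors' deposited value plus 1 in place of scaled counts, 228 were higher and 287 lower, which makes 44.3% higher. That setting changes both the scaling, to all tags read 2 or more times, and the amount added, to 1 CPM, and it moved the median of all genes to -0.11. With the totals of gene counts alone 279 were higher and 282 lower. No gene changed sides between these settings.

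**Figure D1:**
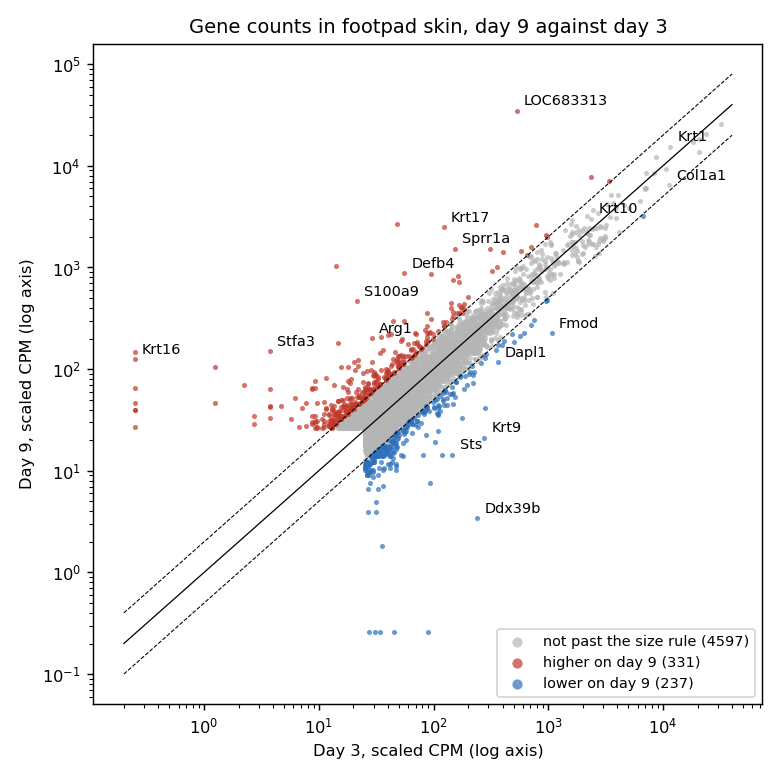
Scaled CPM of the 5165 genes with at least 50 counts in the day 3 or the day 9 library, day 3 on the horizontal and day 9 on the vertical log axis, with 0.5 counts added to each library. The solid line marks equal levels and the dashed lines 2-fold differences; LOC683313, the keratin 6 gene, lies 65.6-fold above equality and Ddx39b lies furthest below it among the labelled genes.

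Among the genes with the largest ratios were several that are known from injured epidermis, beside others that are not, such as Fam111a and Ankrd1. The most abundant tags of some of these genes are shown because every gene value rests on tags. Each is given as read, with the anchoring CATG in capitals:
LOC683313: CATGtgatgtctttgcttttc
Krt17: CATGaaagcatccctggaggg
Krt16: CATGaaagcatccttggagaa
S100a9: CATGtaacatctgcccaacca
Defb4: CATGaaaatgcacaaaacaaa
Sprr1a: CATGgctcaggattcatctga
Stfa3: CATGaacaatatttgtccagc
Arg1: CATGtgatttttgtaataaac

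The largest difference in counts belonged to LOC683313, described in the files as type II keratin 6A and named Krt6c in the GRCr8 gene table. It had 432, 1071, 5316 and 66660 counts on days 0, 3, 6 and 9. Its share of all gene counts went from 0.0544% (Clopper-Pearson interval 0.0512 to 0.0578) on day 3 to 3.41% (3.39 to 3.44) on day 9, and the ratio was 65.6-fold (61.8 to 69.8) higher. Its most abundant tag held 90.8% of its copies, with 931 on day 3 and 60573 on day 9, and its other 67 tags together went from 146 to 6088. Keratin 6 genes are near-identical copies, so the division of tags among them is uncertain.

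Krt17, a type I keratin of injured and appendage epithelium, had 499, 246, 262 and 4743 counts and was 20.3-fold (17.9 to 23.2) higher on day 9 than on day 3. Krt16, the usual partner of keratin 6, had no counts on days 0 and 3, 37 on day 6 and 239 on day 9, and was at least 84.0-fold higher. A single copy of its most abundant tag was read on day 3, below the 2 copies that enter the gene counts. Both stood highest on day 9 of the 4 days, and on day 6 keratin 6 and Krt16 were already above day 3 while Krt17 had 262 counts beside 246. The list also held keratins of simple epithelium, which line glands and ducts, and these did not share the direction: Krt19 was 2.93-fold (2.30 to 3.80) lower, with 264 counts on day 3 and 85 on day 9, and Krt8 and Krt18 were 1.83-fold and 1.14-fold lower and not past the rule. In all, 3 of 5 genes of this list with enough counts were higher and 1 was lower.

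Alarm proteins and antimicrobial peptides of the epidermis had 6 members with enough counts, and all 6 were higher on day 9. S100a9, a subunit of calprotectin, had 34, 43, 34 and 891 counts and was 21.6-fold (16.1 to 30.4) higher. Its partner S100a8 had 39, 17, 10 and 122 counts and was 7.38-fold (4.54 to 13.4) higher. Both were low over the first 3 days and high on day 9 alone.

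Defb4, a beta-defensin, followed another course, with 15, 112, 551 and 1669 counts, each higher than the last, and was 15.7-fold (12.98 to 19.21) higher on day 9 than on day 3. Il36g, a keratinocyte cytokine of the interleukin 1 family, had 29, 70, 160 and 393 counts and was 5.89-fold (4.58 to 7.75) higher. Il36rn, the antagonist of its receptor, was 2.37-fold (2.10 to 2.69) higher and Defb1 2.16-fold (1.80 to 2.61) higher. The median log2 ratio of the 9 measured members of this list was 1.25, beside -0.003 for all genes.

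S100a8 and S100a9 are made by keratinocytes and by neutrophils. Of 26 genes on the neutrophil list, 11 were listed in any library and 3 had enough counts, of which S100a8 and S100a9 were the higher ones. Ncf4, a subunit of the phagocyte oxidase, had 48 and 50 counts, its partner Ncf1 had 47 and 22, Lcn2, a lipocalin that binds siderophores, had 22 and 8, and Mmp9, a gelatinase, had 5 and 33. The neutrophil receptor Cxcr2 had 2 and 6 counts, Trem1 had 0 and 5, and Itgb2, an integrin chain of leukocytes, had 5 and 0. The summed level of the list was 93.8 CPM (counts per scaled library total) on day 3 and 596 on day 9, and without S100a8 and S100a9 it was 64.1 and 65.0. The part of neutrophils in the S100a8 and S100a9 values was not tested.

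Cytokines and chemokines were mostly too few in counts for the rule. Of 28 listed, 7 had enough counts, and Il24, a cytokine of the interleukin 10 family, was the one past it: it had 75 counts on day 9 and 0 in the other 3 libraries, at least 26.4-fold higher than on day 3. Il1b had 3 counts on day 3 and 35 on day 9, Ptgs2, the inducible cyclooxygenase, had 2 and 37, and Ptges, a prostaglandin E synthase, had 5 and 36, all below the 50 counts the rule asks for. Their ratios were 10.7-fold (3.88 to 62.6), 15.8-fold (5.03 to 167) and 7.001-fold (2.97 to 24.8) higher. Lower without passing were Ccl24, an eosinophil chemokine, with 48 and 12 counts, and Ccl21, a lymphatic chemokine, with 1378 and 913.

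Small proline-rich and other envelope genes of injured epidermis had 10 members with enough counts, of which 7 were higher and none lower, with a median log2 ratio of 1.45. Sprr1a, a precursor of the cornified envelope, had 739, 307, 160 and 2909 counts and was 9.98-fold (8.88 to 11.3) higher on day 9 than on day 3. Its value on day 3 was lower than on day 0, so it lay below the unirradiated level early and above it late. Gjb2 and Gjb6, the connexins 26 and 30 of epidermal gap junctions, were 4.87-fold (4.47 to 5.32) and 3.00-fold (2.53 to 3.59) higher, with 625 and 2886 counts for Gjb2. Anxa1, a phospholipid-binding protein, had 811 and 2705 counts and was 3.52-fold (3.25 to 3.81) higher.

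Among protease inhibitors, 6 of 17 serpins and cystatins with enough counts were higher, none was lower and 11 lay within the rule (median log2 ratio 0.68). Stfa3, a stefin that blocks cysteine proteases, had 0, 7, 17 and 287 counts and was 40.4-fold (20.7 to 109) higher. Serpinb3 was 6.70-fold (5.38 to 8.52) higher, with 89 and 568 counts, and Serpinb2, plasminogen activator inhibitor 2, was 5.40-fold (4.41 to 6.70) higher, with 111 and 570. Cst3, cystatin C, was on the other side at 1.86-fold (1.80 to 1.93) lower, with 8403 and 4272 counts, within the rule.

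Some of the largest ratios fell in UniGene-type entries, which the naming rule does not reach and which were chosen after their values were seen. An entry described as stefin-3-like had 86, 96, 97 and 5142 counts and was 56.2-fold (46.2 to 69.9) higher on day 9 than on day 3. An entry described as stefin-2-like had 0, 2, 2 and 201 counts, and one described as serpin B4-like had 0, 0, 33 and 125. An entry with no description, S14136697, had 12, 28, 108 and 1964 counts and was 72.7-fold (51.0 to 112) higher. Stefins are a family of close copies, so the share of each copy is uncertain.

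**Figure D2:**
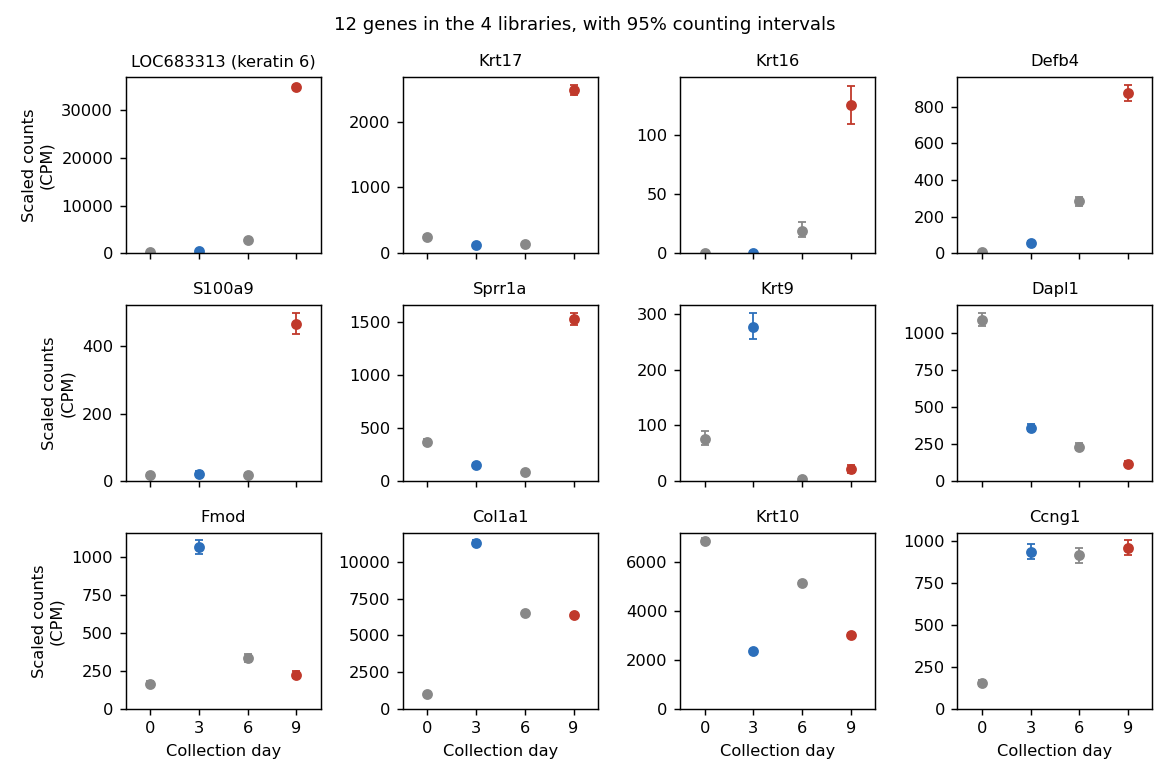
Scaled CPM of 12 genes in the libraries of days 0, 3, 6 and 9 on linear axes that start at 0, with day 3 in blue and day 9 in red; the bars are 95% counting intervals of 1 library each. The first 6 genes are highest on day 9, Krt9 and Fmod are highest on day 3, Dapl1 is lowest on day 9, and Ccng1 is level over the 3 irradiated days.

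The ordinary keratins of differentiation differed less than those of injury. Krt1 had 23380 counts on day 3 and 29506 on day 9, 1.33-fold (1.31 to 1.35) higher, and Krt10 had 4763 and 5777, 1.28-fold (1.23 to 1.33) higher, both within the rule. Of 22 suprabasal and cornified layer genes with enough counts, 5 were higher and 1 lower, with a median log2 ratio of 0.41. The higher ones were Lce1m, a late envelope gene, 5.56-fold (4.05 to 7.93), Cnfn (cornifelin), 2.82-fold (2.58 to 3.09), Lypd3, 2.78-fold (2.56 to 3.04), Kprp, 2.26-fold (2.12 to 2.41), and Tgm1, the transglutaminase that crosslinks the envelope, 2.12-fold (1.69 to 2.70). Lypd3, with 2238, 727, 1028 and 1919 counts, and Tgm1, with 304, 111, 110 and 224, lay below their day 0 level on day 9. Lce1m, Cnfn and Kprp lay above theirs.

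The lower one was Krt9, the keratin of palm and sole epidermis, with 153, 559, 6 and 40 counts, which was 13.1-fold (9.60 to 18.7) lower on day 9 than on day 3. Its most abundant tag had 356 and 18 copies and its other tags together 203 and 22, so both moved alike. The counts of Krt9 thus were far apart on all 4 days, with the day 3 library highest. Krt2, also of upper epidermal layers, was 1.38-fold (1.15 to 1.67) lower, within the rule.

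Among basal keratinocyte genes 3 of 11 were higher and 1 was lower. Krt14, the basal type I keratin, had 295, 144, 319 and 353 counts and was 2.58-fold (2.12 to 3.16) higher on day 9 than on day 3. Cdh3, P-cadherin, was 4.79-fold (2.95 to 8.50) higher, with 80, 19, 33 and 88 counts. Ly6d was 4.08-fold (3.46 to 4.85) higher, but its tags other than the most abundant one did not share this direction. Tp63, the transcription factor of stratified epithelium, and Col17a1, a hemidesmosome collagen, differed by 1.14-fold and 1.04-fold, both lower. Igfbp2, an insulin-like growth factor binding protein, was the lower member at 2.00-fold (1.54 to 2.65).

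Cell junction genes had 4 of 24 higher and none lower. Besides Gjb2 and Gjb6 these were Dsg3, the desmosomal cadherin of the lower epidermis, 4.01-fold (2.38 to 7.45) higher with 17 and 66 counts, and Cd44, a hyaluronan receptor, 2.21-fold (1.86 to 2.63) higher. The desmosome components Dsp and Pkp1 were 1.19-fold and 1.09-fold lower, within the rule. Of 8 basement membrane genes with enough counts 1 was higher and 1 lower. The lower one, Lamb2, a laminin chain, was 2.26-fold (1.93 to 2.66) lower, with 520 and 218.

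Of 43 actin cytoskeleton genes, 9 were higher and 0 lower, and the median log2 ratio was 0.50. Ankrd1, a nuclear and sarcomere protein that responds to stretch and injury, had 4, 7, 3 and 122 counts and was 17.2-fold (8.66 to 46.7) higher. Anxa3 was 3.18-fold (2.51 to 4.07) higher and Anxa2 2.48-fold (2.32 to 2.66) higher, and Arpc5 and Actr3, parts of the complex that branches actin filaments, were 2.47-fold (2.01 to 3.07) and 2.31-fold (1.84 to 2.93) higher. Actb itself, often used as a reference gene, had 3848, 1774, 876 and 2316 counts and was 1.38-fold (1.29 to 1.47) higher. Vim, the intermediate filament of mesenchymal cells, was 1.44-fold (1.37 to 1.51) lower.

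Of 23 immediate early and stress transcription factors, 8 were higher and 0 lower, and the median log2 ratio was 0.67. Atf3, a stress-induced repressor, had 43, 18, 21 and 145 counts and was 8.30-fold (5.19 to 14.7) higher. Bcl3, a coactivator of NF-kappa-B, was 5.08-fold (3.39 to 8.12) higher, and Ier3 was 3.16-fold (2.11 to 4.97) higher, with 31 and 94 counts. Zfp36, Dusp6, Klf6, Nr4a1 and Cebpd were between 2.03-fold and 2.59-fold higher. The classical members moved less, since Fos had 44 and 63 counts, Jun 160 and 172 and Myc 191 and 216, and Dusp1, with 357 and 188, was 1.80-fold (1.50 to 2.16) lower, all within the rule.

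Stress proteins of other kinds were divided. Hspb1, a small heat shock protein of differentiating keratinocytes, was 4.82-fold (3.50 to 6.91) higher, with 44 and 203 counts, of which tags other than the most abundant one held 22 and 32. Cryab, a related chaperone that is abundant in muscle, was 2.78-fold (2.42 to 3.20) higher. Phgdh and Psat1, the first enzymes of serine synthesis, were 3.91-fold (2.42 to 6.85) and 2.17-fold (1.74 to 2.73) lower. In all 3 of 26 genes of the heat shock and ER list were higher and 2 lower. Of 21 redox genes 3 were higher and 2 lower: Slc7a11, the cystine importer, was 8.31-fold (4.72 to 17.2) higher, with 12 and 98 counts, Gpx2 was 2.72-fold (2.16 to 3.48) and Txn1, thioredoxin, 2.27-fold (1.65 to 3.19) higher. Gsta3, a glutathione transferase listed under another symbol in the GRCr8 table, was 2.70-fold (2.39 to 3.06) lower, with 1012 and 355 counts.

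Several further genes were named for the size of their ratio alone. Arg1, arginase 1, which turns arginine into ornithine, had 12, 58, 71 and 383 counts and was 6.92-fold (5.27 to 9.35) higher on day 9 than on day 3. Fam111a, a protease that acts at stalled replication forks, had 0, 4, 11 and 133 counts and was 31.3-fold (13.4 to 131) higher. Psma1, a subunit of the proteasome core, was 6.98-fold (4.57 to 11.5) higher, with 23 and 155 counts, and 4 of 27 proteasome genes were higher in all. Ebna1bp2, a nucleolar protein of ribosome assembly, had 18, 17, 115 and 124 counts and was 7.51-fold (4.62 to 13.6) higher.

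The p53 targets did not move together between these days. Of 16 with enough counts 2 were higher and 2 lower, with a median log2 ratio of -0.04. One of the lower ones, Plk2, has a direction that depends on the tags counted, and with its partner tag, shown further on, the counts would be 3 higher and 1 lower. Ccng1, cyclin G1, had 303, 1885, 1776 and 1831 counts and differed by 1.02-fold (0.960 to 1.09). Mdm2, the ligase that limits p53, had 129 and 164 counts, 1.34-fold (1.06 to 1.70) higher, and Bax, which opens mitochondria in cell death, had 128 and 118. These counts lay within a narrow range on the 3 irradiated days and well above those of day 0.

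Bbc3 (PUMA), which triggers cell death, was 2.38-fold (1.84 to 3.13) lower on day 9, with 23, 204, 194 and 81 counts. Plk3, a stress kinase, was 6.72-fold (4.65 to 10.3) higher, with 132, 31, 62 and 200 counts, and Gadd45a 2.20-fold (1.40 to 3.62) higher. Cdkn1a, which encodes the cell cycle inhibitor p21, had 1197 and 947 counts and was 1.20-fold (1.10 to 1.31) lower. Its copies moved between a pair of tags, both assigned to it, that are 1 base apart, the first with 1100 copies on day 3 and 397 on day 9, the other with 0 and 457, so only their sum can be read.

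Plk2, a further stress kinase, was 19.4-fold (7.37 to 111) lower by its assigned tags, with 0, 71, 59 and 3 counts, but a tag assigned to no gene had the opposite pattern. The pair is shown because it turns the direction of this gene:
Plk2 tag: CATGctagagaaatcggacag
tag under no gene: CATGttagagaaatcagacag
The Plk2 tag had 0, 71, 59 and 0 copies on days 0, 3, 6 and 9, and the tag under no gene, at 2 substitutions from it, had 34, 0, 46 and 184. With both counted, Plk2 would be 2.77-fold (2.10 to 3.71) higher on day 9 than on day 3. This search for partner tags was added after the values had been seen, and the gene of origin of the second tag was not tested.

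Cell division genes had few counts in both libraries. Cdk1, which drives entry into mitosis, had 88, 37, 174 and 78 counts and was 2.21-fold (1.49 to 3.38) higher on day 9 than on day 3. It was 1 of 2 mitosis genes with enough counts, and the median log2 ratio of the 8 measured ones was 1.10. Mki67, the proliferation antigen, had 31, 10, 55 and 29 counts, too few for the rule. The summed level of the mitosis list was 97.8 CPM on day 3 and 202 on day 9, below the 355 of day 0 and the 433 of day 6.

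DNA replication genes were divided, with 2 of 11 higher and 2 lower. Mcm4, a subunit of the replicative helicase, was 4.02-fold (2.22 to 8.30) higher, with 13 and 51 counts, but the difference lay in a single tag with 98, 0, 0 and 38 copies on days 0, 3, 6 and 9, and its other tags had 13 and 13. Rrm2, a subunit of ribonucleotide reductase, was 2.56-fold (1.55 to 4.47) higher. Mcm2, of the same helicase as Mcm4, was 2.16-fold (1.32 to 3.73) lower, and Prim1, a primase subunit, 2.17-fold (1.31 to 3.80) lower. Of 5 DNA repair genes Xrcc6, the Ku70 end-binding protein, was 2.50-fold (1.69 to 3.83) lower, with 93 and 35 counts.

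**Figure D3:**
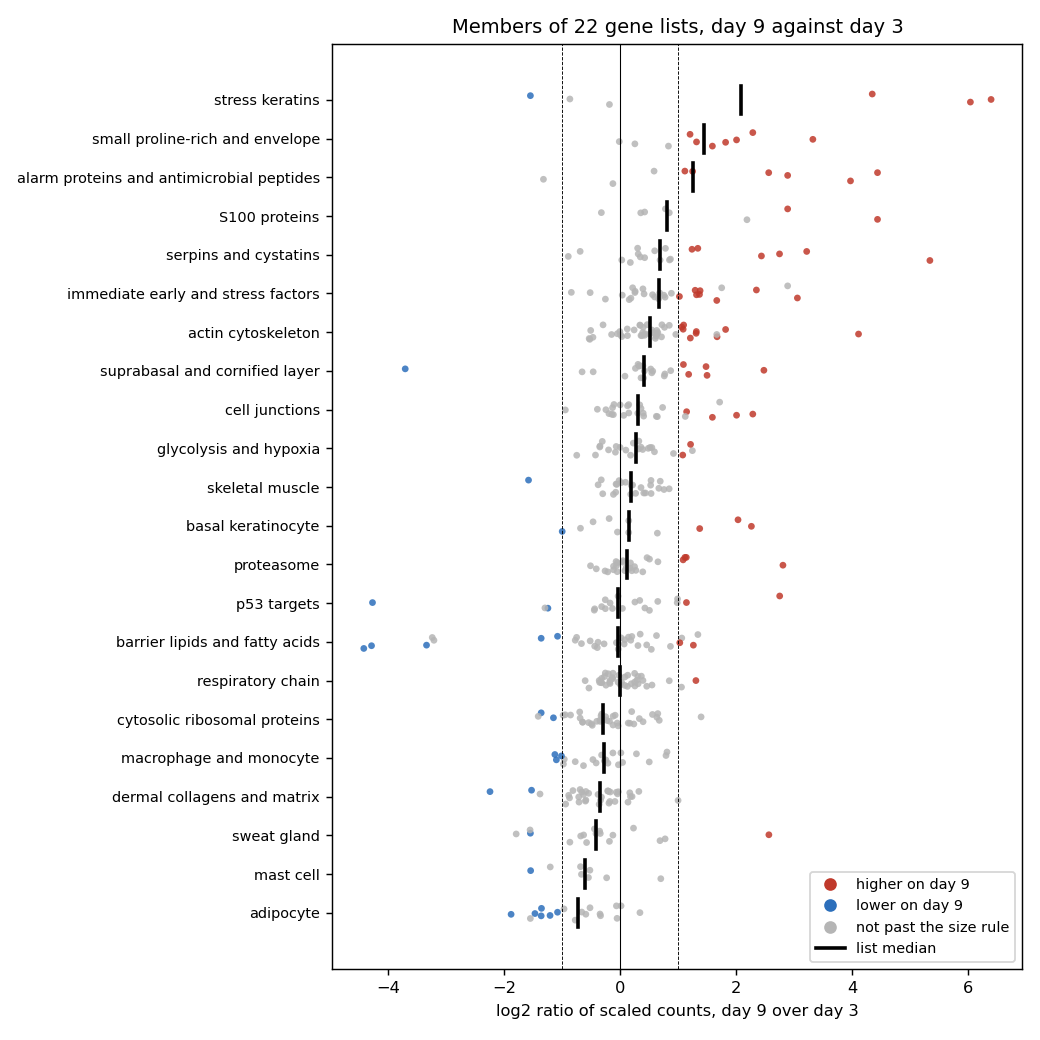
The log2 ratio, day 9 over day 3, of the members of 22 gene lists with a mean of at least 10 counts, 1 point a gene, with the list median as a black bar and 2-fold differences as dashed lines. Medians run from 2.08 for the stress keratin list at the top to -0.72 for adipocyte genes at the bottom. The stress keratin median lies between Krt17 at 4.34 and Krt18 at -0.19, with no member near it. Red and blue mark genes past the size rule. The medians describe 2 libraries and lists of unequal size.

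Dermal matrix genes lay on the lower side on day 9, mostly within the rule. Of 30 with enough counts 2 were lower and none higher, with a median log2 ratio of -0.35. The count of lower genes was near the share over all genes, 4.59%. Col1a1, a chain of type I collagen, had 2001, 22815, 12663 and 12260 counts and was 1.76-fold (1.73 to 1.80) lower on day 9 than on day 3, and Sparc, a collagen-binding glycoprotein, had 41424 and 25980 and was 1.51-fold (1.49 to 1.53) lower. Fmod, fibromodulin, a proteoglycan that binds collagen, had 331, 2153, 647 and 429 counts and was 4.75-fold (4.29 to 5.29) lower, and Loxl1, which crosslinks elastin, was 2.89-fold (1.73 to 5.23) lower, with 59 and 19.

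In bulk skin, fewer cells of a type and less RNA in each cell cannot be told apart. Of the 30 genes, 28 lay on the lower side of day 3 on day 9, and 27 still lay above their day 0 value. The median log2 ratio of all genes was -0.003, and the share of all genes above day 0 is not given here. Col1a1 had about as many counts on day 9 as on day 6, and Fmod was near its day 0 value. Col3a1, Dcn (decorin) and Lum (lumican) were 1.16-fold, 1.16-fold and 1.03-fold lower. Among proteases and their inhibitors Adamts1, which cleaves proteoglycans, was 4.72-fold (3.38 to 6.85) higher with 41 and 185 counts, Mmp23 was 2.56-fold (1.63 to 4.23) lower with 71 and 26, and Mmp2, a gelatinase, was 1.45-fold (1.39 to 1.52) lower. Tgfa, a ligand of the EGF receptor, was 2.45-fold (1.72 to 3.57) higher, while Ctgf, a matricellular protein induced by TGF-beta, was 2.21-fold (1.95 to 2.51) lower, though only in its most abundant tag.

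Adipocyte genes had the lowest median, -0.72 on the log2 scale, with 6 of 15 lower and none higher. The share of lower genes over all genes with enough counts was 4.59%. Adipoq, adiponectin, had 41, 448, 35 and 165 counts and was 2.57-fold (2.15 to 3.10) lower. Fasn, fatty acid synthase, was 2.58-fold (2.07 to 3.25) lower, and Cidec and Cidea, which act at lipid droplets, were 3.69-fold (2.08 to 7.38) and 2.78-fold (1.81 to 4.48) lower. Fabp4, a fatty acid carrier, had 516 and 470 counts, so not all adipocyte genes shared this size.

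Lipid genes of the barrier and of sebaceous glands went both ways, with 2 of 24 higher and 5 lower. Cers3, the ceramide synthase of the epidermal barrier, was 2.39-fold (1.95 to 2.97) higher, and Ugcg, which makes glucosylceramide, 2.03-fold (1.68 to 2.48) higher. Elovl3 and Awat1, enzymes of sebaceous lipids, had 68 and 62 counts on day 3 and 0 on day 9, at least 21.5-fold and 19.6-fold lower. Pnpla5, a lipase that is on no list and was named for its values, had 58, 90, 38 and 0 counts. The 3 genes were listed at 0 on day 9 alone. Dhcr7, which completes cholesterol synthesis, was also lower, by 2.13-fold (1.52 to 3.03).

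Other genes were named for the size of a low ratio. Aldh3a1, an aldehyde dehydrogenase, had 355 and 63 counts and was 5.31-fold (4.08 to 7.10) lower, Pctp, a phosphatidylcholine carrier, 8.15-fold (5.55 to 12.8), and Cers5, another ceramide synthase, 5.44-fold (3.85 to 8.07) lower. Dapl1, a gene of epithelial differentiation, had 2190, 728, 453 and 223 counts and was 3.09-fold (2.66 to 3.61) lower, and Pdcd4, an inhibitor of translation named as a list member, was 2.28-fold (1.98 to 2.62) lower with 704 and 293. Tmem56, Tst, Hdac5, Atp2a3, Dhrs3 and Klra17 were between 3.01-fold and 12.4-fold lower. Dapl1 and Tst, a sulfurtransferase, were those of this group whose counts were lower on each later day.

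Both libraries held transcripts of skeletal muscle, which lies under the footpad skin, and of sweat glands. Skeletal muscle genes summed to 7688 CPM on day 3 and 7982 on day 9, beside 4323 on day 0 and 90.4 on day 6, and 19 of 20 with enough counts lay within the rule. Myl1, a myosin light chain, had 5394 and 4705 counts and differed by 1.09-fold, lower. The exception was Tnnc1, the troponin C of slow and cardiac muscle, 3.00-fold (2.48 to 3.66) lower with 444 and 140 counts, a difference that its less abundant tags (23 and 27 copies) did not share.

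Sweat gland genes summed to 1638 and 1815 CPM, with a median log2 ratio of -0.42. The rise of the sum came from Aqp3, a water channel that epidermis makes too, with 1176 and 1903 counts, 1.71-fold (1.59 to 1.84) higher, and without it the sums were 1054 and 818 CPM. Ca2, a carbonic anhydrase that also occurs outside glands, was the higher of 9 members at 5.90-fold (4.24 to 8.57), with 9, 40, 29 and 226 counts, and Krt19 was the lower one. Without the genes of the muscle and gland lists 330 genes were higher and 235 lower in all. In all, 14 of the 18 sweat gland genes listed in either library lay on the lower side, most of them within 2-fold. The median log2 ratio of all genes was -0.003.

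Markers of immune cells went both ways on day 9. Over all genes with enough counts 4.59% were lower and 6.41% higher. Of 17 macrophage genes 3 were lower and none higher: Aif1 was 2.02-fold (1.71 to 2.40), the scavenger receptor Cd163 2.15-fold (1.64 to 2.86) and the folate receptor Folr2 2.19-fold (1.82 to 2.65) lower. Csf1r, the receptor for macrophage growth factor, had 327 and 223 counts, and C1qb, a complement chain made by macrophages, 245 and 200. Of 5 mast cell genes Cma1, chymase, was 2.92-fold (2.00 to 4.45) lower by its assigned tags, with 109 and 35 counts. A tag under no gene, which can be read as the main Cma1 tag with 2 bases more, had 0 copies on day 3 and 57 on day 9. The size of the Cma1 difference thus depends on the tags counted, and the gene of origin of that tag was not tested. Cpa3, carboxypeptidase A3, had 376 and 221 counts.

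Langerhans and dendritic cell genes gave no member past the rule among 7, and genes of the class II pathway were divided. RT1-Db1, a class II chain, had 283 and 534 counts and was 1.99-fold (1.72 to 2.31) higher. RT1-Ba, another chain, had 324 and 463 and was 1.51-fold (1.31 to 1.74) higher, but its most abundant tag had 324 and 244 copies and its other tags 1 and 219. RT1-DMb, a chain of the molecule that loads peptides, had 120 and 57 counts and was 1.99-fold (1.44 to 2.79) lower. RT1-DMa, its partner, had 60 and 49, Epcam, an adhesion molecule of Langerhans and epithelial cells, 130 and 96, and Cd74, the invariant chain, 11 and 2. LOC688090, described as a class II beta chain and on no list, had 87, 2, 63 and 88 counts and was 37.3-fold (12.5 to 389) higher. That ratio rests on 1 tag with 0 copies on day 3 and 83 on day 9, and the gene's other tags had 2 and 6. Only Thy1, which is shared with fibroblasts, had enough counts among 14 listed T cell genes, with 479 and 475. Interferon response genes had 2 of 7 lower: Irf7, the regulator of type I interferon, 4.21-fold (2.65 to 7.24), with 95 and 21 counts, and the immunoproteasome subunit Psmb8, 2.01-fold (1.28 to 3.27).

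Endothelial genes were level in the main, with Icam1, an adhesion molecule of inflamed vessels, 2.14-fold (1.51 to 3.12) higher as 1 of 14. Sele, E-selectin, had 66, 165, 211 and 287 counts and was 1.83-fold (1.51 to 2.24) higher, within the rule. Hbb, a beta-globin of red blood cells, had 35, 1510, 104 and 579 counts and was 2.47-fold (2.24 to 2.73) lower. Nerve and Schwann cell genes had no member past the rule among 6, with a median log2 ratio of -0.56.

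Housekeeping groups had few members past the rule. Over all genes with enough counts 6.41% were higher and 4.59% lower, and the median log2 ratio of all genes was -0.003. Respiratory chain genes had a median log2 ratio of -0.0001 with 1 of 37 higher, and cytosolic ribosomal protein genes one of -0.29 with 2 of 32 lower. Of these 32, 24 lay on the lower side: Rpl3 had 5181 and 2476 counts and was 1.98-fold (1.89 to 2.08) lower, just inside the rule, and Rps3a was 1.63-fold (1.56 to 1.70) lower. Clock genes had Rora, a nuclear receptor of the loop, 3.12-fold (2.25 to 4.45) higher as 1 of 9, and the time of day of either collection is not given. Glycolysis and hypoxia genes had Ndrg1 and Hif1a, 2.31-fold (1.86 to 2.91) and 2.11-fold (1.76 to 2.54) higher, as 2 of 16. No list median changed sign among the scalings tried, except that of the differentiation regulators, which went from 0.10 to -0.007 with the authors' deposited value plus 1.

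Over the 4 days, the 331 higher genes mostly had their highest level in the late sample: the day 9 library was the highest of the 4 in 290 of them, and the day 6 value lay between those of day 3 and day 9 in 222. The day 0 value was within 2-fold of day 3 in 245 of them and within 2-fold of day 9 in 150. Of the 237 lower genes the day 9 library was the lowest of the 4 in 149, and the day 0 value was within 2-fold of day 3 in 140 and within 2-fold of day 9 in 110. These counts share the day 3 and day 9 libraries with the rule and are given as a description.

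How far a value rests on a single tag can be read from the other tags of a gene. Of the 568 genes past the rule, 204 had at least 20 copies in tags other than the most abundant one, and in 195 of these, 95.6%, the other tags lay on the same side. The 9 exceptions were Adh7, Sts, Tnnc1, Eif6, Diaph1, Ly6d, Paqr5, Metrnl and Ctgf. The rule was applied to the sum of all tags, other tags included, so part of this agreement is built in. The remaining genes past the rule had too few other copies to be compared. Sts, steroid sulfatase, had 6, 294, 461 and 27 counts and was 10.2-fold (6.95 to 15.9) lower on day 9, but only its most abundant tag, with 286 and 7 copies, showed this, and its other tags had 12 and 20. Ptp4a2, a phosphatase, was 12.2-fold (8.48 to 18.8) higher through a tag with 1 and 290 copies, while its other tag had 29 and 51.

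**Figure D4:**
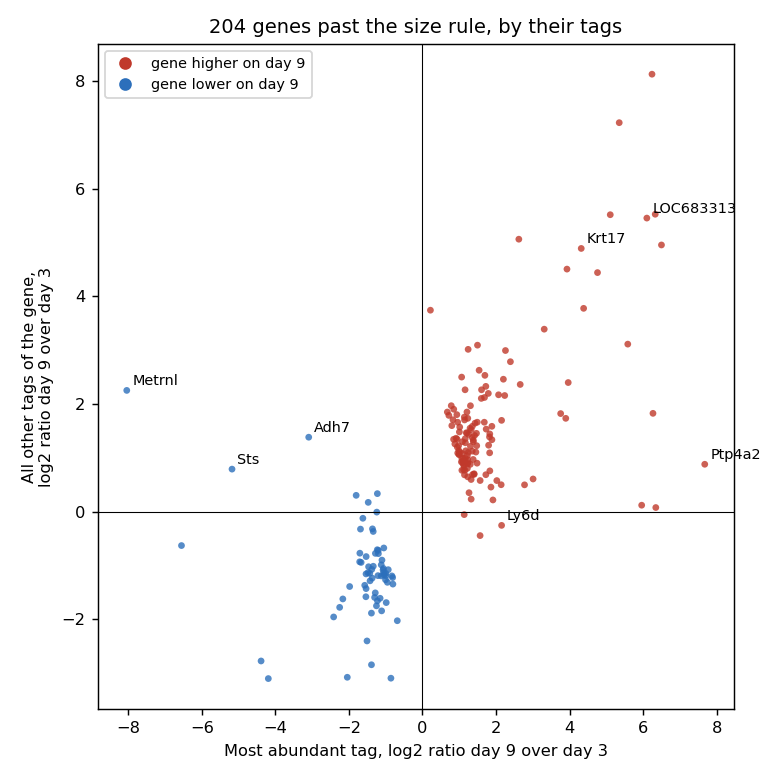
Each point is 1 of the 204 genes past the size rule whose less abundant tags held at least 20 copies; the horizontal axis gives the log2 ratio, day 9 over day 3, of the most abundant tag and the vertical axis that of all other tags of the gene. In 195 genes both lie on the same side of 0; Sts, Adh7 and Metrnl lie in the upper left and Ly6d just under the horizontal line.

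Ubb, a ubiquitin gene, had 321, 191, 1529 and 1663 counts and was 9.16-fold (7.90 to 10.7) higher on day 9 than on day 3. A tag 1 base from its own that is assigned to no gene had 2345, 894, 6639 and 6768 copies, higher on day 9 as well. Ubiquitin is encoded by repeated copies, so its counts are uncertain. Ddx39b, an RNA helicase of splicing, had 467, 481, 5 and 6 counts and was 70.2-fold (34.7 to 208) lower, and a UniGene-type entry had the opposite pattern. Their tags are shown because the latter can be read as the former with 2 bases more:
Ddx39b tag: CATGcctctctgcgtcaccac
tag of the entry S47613288: CATGcctctctctgcgtcacc
The first tag had 458, 477, 0 and 0 copies on days 0, 3, 6 and 9, and the second 0, 0, 326 and 283. With both counted the gene would be 1.58-fold (1.36 to 1.83) lower on day 9 than on day 3, within the rule.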

How the data were processed

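Gene expression was measured as 21-base tags in 1 library for each of days 0, 3, 6 and 9, grouped by the collection day in the sample titles. Per the file headers, the authors deposited for each gene a whole-number count, which equals the copies of its assigned tags without tags read once, and a normalized value. This deposited value is called TPM there but is CPM, which the authors scaled to all tags read 2 or more times. In the files 0 gene sums, tag copies or scaled values departed from this reading in any library. Per the submitters' processing notes the build was Rnor_6.0. Aligner, mismatch limit and annotation release: not given in the sources used here. Libraries held 3360368 (day 3) and 3442555 (day 9) sequenced tags. Tags read 2 or more times made up 3247997 and 3326569 of these, and 39.4 and 41.3% of them stood under no gene.

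Counts were joined by gene identifier. Of 18957 entries 11471 had a numeric gene ID, of which 11247 were found in the GRCr8 gene table, 1152 under another symbol; the symbols of the files were kept. Counts were scaled by the TMM factors of edgeR 4.0.16 over the 4 libraries (1.02 on day 3, 0.978 on day 9), 0.5 counts were added for ratios, and exact 95% Clopper-Pearson intervals were computed from both counts with scipy 1.17.1. They cover counting error only, and tags carry no molecular identifiers. With 1 library a side no tool can estimate how animals vary, so no test was made and no p-value is given. List medians use members whose mean count was 10 or more; the members, the 45 lists and the rules were chosen with earlier results of these data known, so their directions are no independent support.

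Genes were named by rule: the 15 highest and 15 lowest past the size rule that reached 100 counts and had an established symbol, the 2 to 4 members of each list furthest apart, and some genes for checks; further members are named as context, and some genes that the rule takes are not reported here. LOC683313, LOC688090, Pnpla5, the UniGene-type entries and the partner tags were chosen after their values were seen. Alternatives covered scaling (totals, DESeq2 1.42.0 size factors), floors, the interval, the added count and the tags used. The calculation was tested on simulated counts.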

Additional observations from a re-analysis of the deposited data

Results flagged for a closer look

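Tags that the files assign to no gene carried some of the largest differences between the 2 libraries, outside the gene counts used above. Of 2764 such tags that reached 50 copies, 332 were higher on day 9 and 192 lower by the same size rule, and 309 and 183 of these had no assigned tag 1 base away. The 6 below had the most copies on day 9 among the higher ones that also lay more than 2-fold above day 0 after scaling; copies are given for days 0, 3, 6 and 9 in that order.
CATGcttcaccccctgcttga: 32176, 24865, 41356 and 61392 copies, 2.60-fold (2.57 to 2.64) higher on day 9 than on day 3.
CATGtcagaccgttggtttac: 12561, 16819, 25272 and 39861 copies, 2.50-fold (2.46 to 2.55) higher.
CATGgtgatagtctaataaag: 48, 753, 4967 and 28292 copies, 39.6-fold (36.9 to 42.7) higher.
CATGtactttctgtttttctc: 6271, 6242, 6907 and 25032 copies, 4.23-fold (4.12 to 4.35) higher.
CATGcttggctcctcccttgt: 8051, 4210, 9472 and 18412 copies, 4.61-fold (4.46 to 4.77) higher.
CATGcgtctcacaaatcaagt: 3994, 1702, 1792 and 12124 copies, 7.51-fold (7.14 to 7.91) higher.
The second and the third of these had more copies on each later day, and the last was high on day 9 alone among the irradiated days. On the lower side the tag with the most copies on day 3 was CATGtgtcctgggggtggccc, with 2859, 12545, 230 and 787 copies, 15.1-fold (14.1 to 16.3) lower on day 9 than on day 3. No genome or transcripts were used here, so the genes of these tags are not named.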

How the results depend on the processing

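The counts of 331 higher and 237 lower genes stayed within 1.5 times under the other scalings, with a prior count of 5 and with numeric gene IDs alone. The same held with unassigned tags 1 base away added and without the rows that rest on a tag nearly missing from 1 library (319 and 228). It also held with the most abundant tag alone (316 and 239, of which 279 and 209 were genes of the main counts). The interval condition left out no gene, so the counts were the same without it. They moved further with the count floor and the bound: 765 and 676 with a floor of 10 counts, 881 and 816 with no floor, 115 and 66 with a floor of 200 counts, and 132 and 65 where the whole interval had to lie beyond 2-fold. No gene was called on opposite sides by any of these. Of the 107 named genes past the rule, all stayed past it with DESeq2 size factors, 106 with totals alone, 99 with the authors' value plus 1, 58 with the floor of 200 counts and 73 with the stricter interval. Adding its partner tag turned the log2 ratio of Plk2 to 1.47, and the cause was not tested. Several medians near 0 changed sign with the choice of members: p53 targets stood at 0.25 and basement membrane genes at 0.46 over members whose mean count reached 50. Genes under 50 counts, such as most cytokines and mitosis genes, could not be ranked at this depth. No paired analysis was possible because each day had 1 library, and no library could be left out.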

Other observations

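Among the 568 genes past the size rule, 21 rested on a most abundant tag with at most 3 copies in 1 of the libraries and at least 50 in the other, 12 of them higher on day 9 and 9 lower. Besides Krt16, Il24, Elovl3, Awat1 and Plk2, described above, they included Kank1, whose main tag had 106, 0, 49 and 81 copies on days 0, 3, 6 and 9, Aplp2 with 227, 3, 226 and 206, and Cabin1 with 0, 52, 0 and 0. LOC688090, described as a class II histocompatibility beta chain, had a main tag with 87, 0, 63 and 83 copies. Abhd16a had one with 0, 0, 114 and 73.

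A search for tags of opposite pattern that differ by at most 2 substitutions, or by 1 run of at most 2 bases gained or lost, found 9 pairs. Each tag had to have at most 3 copies in 1 of the libraries and at least 20 in the other. Tags that kept more copies in both libraries, such as that of Cma1 with 109 and 35, were outside the search. Of the genes the search touched, Metrnl and Plk2, the latter described above, were past the size rule with both tags counted. Metrnl had 455 counts on day 3 and 177 on day 9. One of its tags had 416 and 1 copies and the other, at 1 substitution, 0 and 125. Nrep, Eid1, Pcmtd2, Rpa2 and Cdadc1 held both tags of their pair and stayed within the rule. Nrep had 480 and 0 copies of one tag and 0 and 231 of the other. Pairs of tags 1 base apart that switched almost wholly numbered 7 between days 3 and 9, beside 16 between days 0 and 3, 14 between days 0 and 9 and 4 between days 6 and 9.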
